A study of Bombus terrestris with 16 samples.

Results

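Transcript levels of 2 genes annotated as Toll-like receptors, XM_003396806.1 and XM_003395847.1, were followed in gut tissue of workers of a bumblebee, *Bombus terrestris*. The members were chosen by their RefSeq identifiers, both carrying the deposited product description toll-like receptor 3, and make up 2 of the 10635 transcript records measured. The record of the choice does not say which expression values led to it. The differences between colonies, where both genes stood furthest from most others, are therefore given as a description with no test. Poly(A) RNA was sequenced from 16 gut libraries, 1 for each combination of 4 colonies (K, L, S and T) and 4 exposures. The exposures were a control and 3 genotypes, labelled 068, 075 and 161, of the trypanosome *Crithidia bombi*, a parasite of the bumblebee gut. Each library pooled 3 workers aged 7 d, taken 18 h after they had been exposed. Every exposure and every colony thus had 4 libraries, the spread between single workers was not measured, and a colony's libraries may share more than their colony.

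Toll receptors are membrane proteins with leucine-rich repeats outside the cell and a signalling domain inside it. In *Drosophila*, Toll is switched on by the cleaved protein Spaetzle, which is matured by serine proteases after fungi or bacteria are sensed. The signal passes through the adaptor MyD88 and the kinase Pelle to release NF-kB factors that switch on antimicrobial peptide genes. In vertebrates, Toll-like receptor 3 itself binds double-stranded RNA, and the description carries that vertebrate name.

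The annotation behind the shared name is modest. The description was carried by 12 records, the members and 10 others, with database hit scores from 101 to 879. XM_003396806.1, a record of 2803 bases, had a score of 172 and ranked 8 among the 12. XM_003395847.1, a record of 5383 bases, had a score of 212 and ranked 7. For 10 of the 12 records, both members included, the best hit was the same *Drosophila* gene, CG5195, which is not one of the fly genes named Toll. The process column of the table was empty for XM_003396806.1. For XM_003395847.1 it held 65 process terms, of which 0 named Toll and 1 named Notch. XM_003395847.1 matched the RefSeq locus LOC100651402, where it was the only record, and XM_003396806.1 matched no locus. The genes are called receptors here in the sense of this annotation only. Whether either is a Toll receptor, or holds the signalling domain of one, was not checked.

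Each library held 8.47 to 9.29 M counted reads (8.85 ± 0.223 M, SD, n = 16). Levels are CPM, read counts relative to the library total after scaling for composition, or RPKM, which also divides by record length. The composition factors ran from 0.811 in L 161 to 1.20 in the K control, so these libraries shift most between the scales. A count of 0 would allow up to 3 counts, which is 0.297 to 0.415 CPM by library and covers counting error only. On the first principal component, with 34.1% of the variance, the K control lay at one end, at -54.3, and L 161 at the other, at 51.9. Next to the K control came S 075 at -41.7 and S 161 at -32.2. Of 56 records matching gut epithelium terms, mainly digestive proteases and glucosidases, 55 had more than 3 counts in at least 1 library and 42 in all 16, with a summed level of 87545 to 172590 CPM.

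Both receptors were expressed in every gut library, one at an ordinary level for these guts and the other at a low one. XM_003396806.1 had 104 to 405 reads per library and a mean RPKM of 9.03 ± 3.62 (SD, n = 16), higher than 53.7% of the 8406 genes that passed the count filter. XM_003395847.1 had 24 to 131 reads and a mean RPKM of 1.41 ± 0.675 (SD, n = 16), higher than 15.1% of those genes. The median over those genes was 7.91 RPKM. Per length, XM_003396806.1 stood above XM_003395847.1 in all 16 libraries, by 3.07 to 16.9 times with a median of 5.64.

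Set beside the other records of the same description, the members lay in the middle of a wide range of levels. By mean RPKM, XM_003396806.1 ranked 4 and XM_003395847.1 ranked 6 of the 12. The 3 above XM_003396806.1 were XM_003396298.1 at 34.9 RPKM, XM_003395506.1 at 29.5 RPKM and XM_003394949.1 at 11.4 RPKM. The record with the highest hit score, XM_003400292.1 at 879, had 2 to 11 reads per library and 0.169 RPKM. A further 4 records did not pass the count filter, and 14 of 16 libraries held no read of XM_003397297.1.

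**Figure D1:**
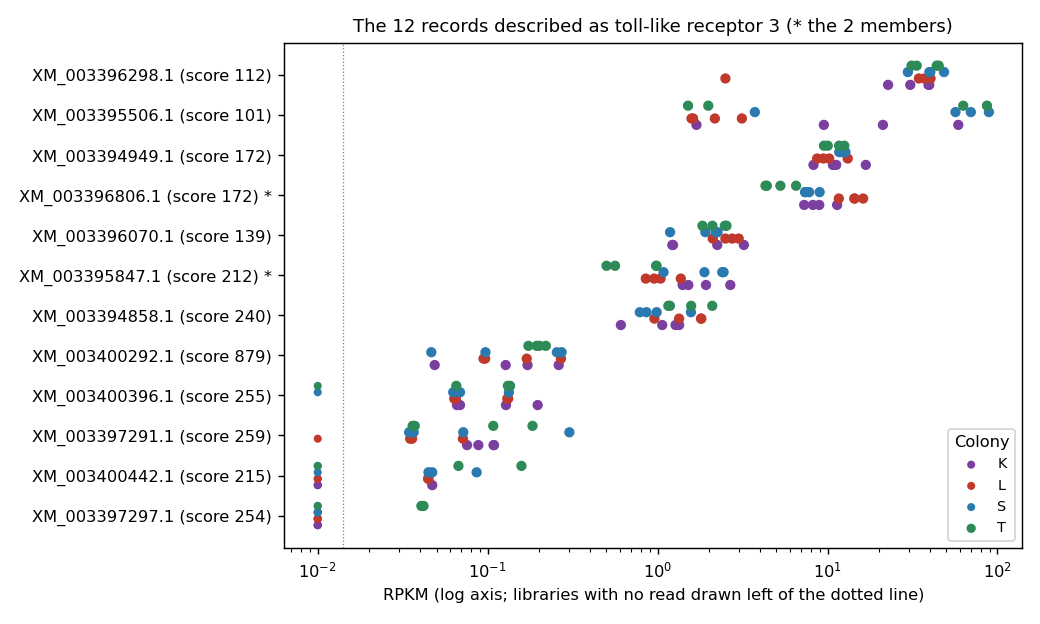
RPKM on a log axis for each of the 12 records described as toll-like receptor 3, with 1 point per library coloured by colony and the database hit score beside each identifier. Asterisks mark the 2 members, which rank 4 and 6 by mean RPKM, and libraries with no read are drawn left of the dotted line.

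Reads covered less of both records than the median of other records with about as many reads per length. XM_003396806.1 had 42.2% to 68.4% of its length covered, with a median of 55.8% over the 16 libraries. Records at 0.8 to 1.25 times its read density had median coverages of 64.9% to 82.2%, and XM_003396806.1 lay below that median in 16 of 16 libraries. XM_003395847.1 had 13.9% to 46.1% covered, with a median of 36.4%, against medians of 25.7% to 58.9%, and was also below in 16 of 16. For this record, 16.4% to 47.3% of the records of like density were covered less. The 16 libraries repeat the same record. Record length enters this comparison, and its part was not tested.

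**Figure D2:**
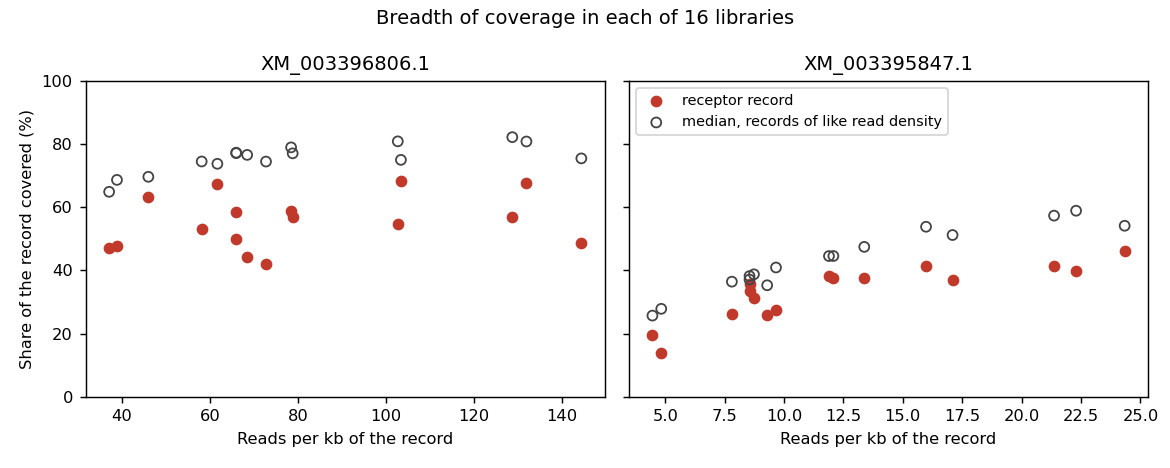
Share of each record covered by reads (percent) against reads per kb of the record, with 1 filled point per library for the receptor and 1 open point for the median of records with 0.8 to 1.25 times its read density. The filled points lie below the open ones in all 16 libraries for both receptors.

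The largest differences in XM_003396806.1 were between colonies, with colony L highest and colony T lowest. In colony L it stood at 42.9 CPM in the control and 39.9, 34.1 and 56.0 CPM after genotypes 068, 075 and 161. In colony K the control had 17.1 CPM and the same 3 exposures had 33.0, 24.7 and 25.6 CPM. In colony S the values were 20.4, 20.8, 20.1 and 22.2 CPM in that order, the narrowest spread of the 4 colonies. In colony T they were 19.9, 14.7, 11.6 and 11.6 CPM. All 4 libraries of colony L lay above all 12 others, and all 4 of colony T lay below all 4 of colony S. The share of all genes with such separate ranges is not given here.

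The colony means of XM_003396806.1 were 43.2 ± 9.26 CPM in L, 25.1 ± 6.50 in K, 20.9 ± 0.919 in S and 14.4 ± 3.90 in T (SD, n = 4). The mean of L was 2.99 times that of T. K and S overlapped, and K and T overlapped in CPM and were separate in RPKM. With exposure in the fit, L differed from the mean of the other colonies by 1.13 ± 0.17 on the log2 scale (SE) and T by -0.97 ± 0.19. The same difference was 0.09 ± 0.17 for K and -0.25 ± 0.18 for S. For K it was 0.30 without the K control and -0.0679 without K 068.

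XM_003395847.1 followed another order, with K and S high and T low. In colony K it stood at 6.33 CPM in the control and 14.9, 8.05 and 11.6 CPM after genotypes 068, 075 and 161. In colony S the values were 12.8, 9.68, 5.66 and 11.6 CPM in that order. In colony L they were 4.87, 5.08, 7.69 and 6.91 CPM, and in colony T 2.93, 5.24, 4.99 and 2.91 CPM. All 4 libraries of T lay below all 4 of K and all 4 of S, and every other pair of colonies overlapped in CPM. For these ranges too, the share of all genes that are separate is not given here.

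The colony means of XM_003395847.1 were 10.2 ± 3.81 CPM in K, 9.93 ± 3.12 in S, 6.14 ± 1.38 in L and 4.02 ± 1.28 in T (SD, n = 4). K differed from the mean of the other colonies by 0.66 ± 0.26 on the log2 scale (SE), S by 0.68 ± 0.26, L by -0.26 ± 0.28 and T by -1.09 ± 0.29. The value of S was 0.331 without the S control, and that of L was -0.0502 without L 068 and -0.437 without L 075. T was thus the lowest colony for both receptors, while L was highest for XM_003396806.1 and below K and S for XM_003395847.1. K and L were separate in RPKM and overlapped in CPM.

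**Figure D3:**
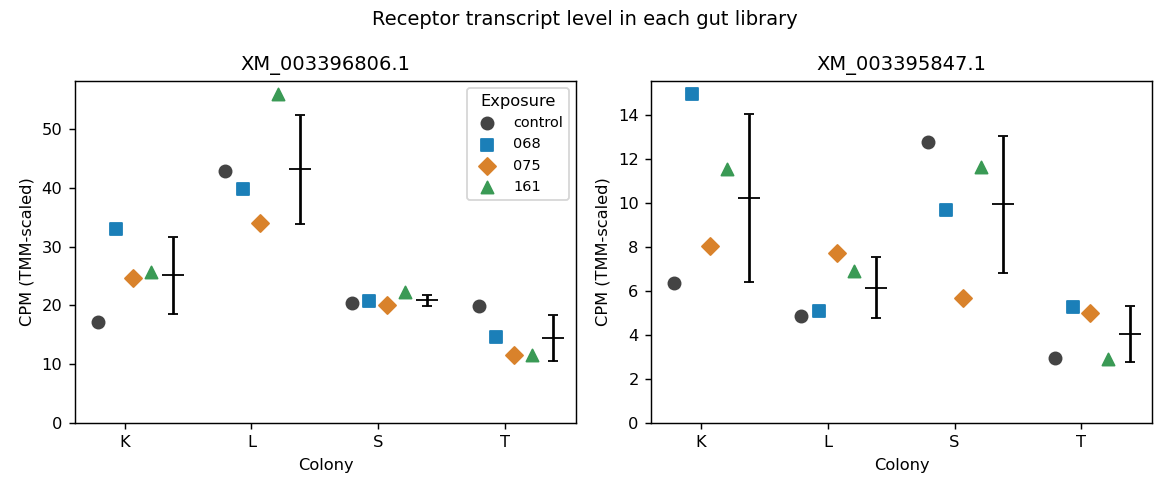
CPM of the 2 receptors in each of the 16 libraries by colony, with marker shape and colour for the exposure, and a bar for the mean ± SD of the 4 libraries of a colony. Colony L stands above the others for XM_003396806.1, with a mean of 43.2 CPM, and colony T is lowest for both, with means of 14.4 and 4.02 CPM.

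Colony held 82.1% of the variation of XM_003396806.1 in log2 CPM and 63.6% of that of XM_003395847.1, against a median of 24.1% over the 8406 genes tested. Exposure held 2.53% and 5.75%, against a median of 14.04%. Among the other 6 records of this description that passed the filter, colony held 3.63% to 35.8%. XM_003394949.1, with the same hit score as XM_003396806.1, held the lowest of these shares and stood at 59.9 to 64.5 CPM on average in every colony. A colony here is 4 libraries of 1 source, so colony differences cannot be told apart from handling that a colony's libraries shared.

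Levels in whole guts also depend on which cells were present, and fewer cells of a type and less RNA per cell cannot be told apart. Of 16 muscle records, 12 had more than 3 counts in at least 1 library and 6 in all of them, with summed levels of 1378 to 3937 CPM over all libraries, 1378 to 2170 in L and 1582 to 2423 in T. Of 23 nervous system records, which include syntaxins used by many cells, 19 passed 3 counts in at least 1 library, and the list summed to 631 to 1029 CPM in L and 663 to 783 in the other colonies. The 10 Malpighian tubule records, which include aquaporins and xanthine dehydrogenase, summed to 2161 to 3380 CPM. The 3 germ line records, all described as aubergine, summed to 7.93 to 21.9 CPM. No description matched the hemocyte or fat body lists, so levels of those cells were not measured. The part of any of these in the colony differences was not tested.

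The ratio of the 2 receptors within a library, which does not depend on library scaling, also differed by colony. XM_003396806.1 had 14.01 ± 3.75 times the RPKM of XM_003395847.1 in L, 7.64 ± 3.85 times in T, 4.90 ± 0.797 times in K and 4.43 ± 1.66 times in S (SD, n = 4). The lowest value in L, 8.51 in the 075 library, lay above all 8 values of K and S. The T control, at 13.0, lay among the values of L, and the other 3 T libraries had 4.45 to 7.68.

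The study crossed colonies with parasite genotypes, and the first question for exposure is whether either receptor differed between exposed and control guts over all colonies. Neither did beyond the error. The 4 controls averaged 25.1 ± 11.97 CPM of XM_003396806.1 and the 12 exposed libraries 26.2 ± 12.9 CPM (SD). With colony in the fit, the log2 difference was -0.0065 ± 0.18 (SE), with a 95% interval of -0.38 to 0.37 (edgeR quasi-likelihood test, adjusted p = 0.99978). The mean log2 difference from the control was above 0 in 2 of 4 colonies, and the sign of the fitted difference changed between scalings.

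For XM_003395847.1 the controls averaged 6.72 ± 4.26 CPM and the exposed guts 7.86 ± 3.49 CPM (SD, n = 4 and n = 12). Its log2 difference was 0.28 ± 0.28 (SE), with a 95% interval of -0.32 to 0.88 (edgeR adjusted p = 0.99978), and the exposed mean was higher in 3 of 4 colonies. Without the S control the difference was 0.635, and without the K control 0.0991. Of the 8406 genes tested, 0% passed an adjusted p of 0.05 in this comparison. By edgeR 263 genes had an unadjusted p under 0.05, and DESeq2 and limma also called 0.

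No single genotype differed from control past the threshold for XM_003396806.1 (edgeR adjusted p of 0.999 for each). Its mean was 27.1 ± 11.4 CPM after 068, 22.6 ± 9.37 after 075 and 28.9 ± 19.0 after 161 (SD, n = 4). Against control, the log2 differences were 0.09 ± 0.22 for 068, -0.18 ± 0.22 for 075 and 0.07 ± 0.22 for 161 (SE). Between genotypes, 161 differed from 075 by 0.25 ± 0.22, with a 95% interval of -0.22 to 0.71 (edgeR adjusted p = 0.901). It stood above 075 in 4 of 4 colonies in CPM and in 2 of 4 in RPKM, where K and T turned. Genotype 075 stood below 068 in 4 of 4 colonies in CPM and in RPKM, by -0.26 ± 0.22, with an interval of -0.73 to 0.20 (edgeR adjusted p = 0.99974). Genotype 161 differed from 068 by -0.02 ± 0.21.

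For XM_003395847.1 the means were 8.73 ± 4.64 CPM after 068, 6.60 ± 1.5005 after 075 and 8.25 ± 4.19 after 161 (SD, n = 4). The log2 differences from control were 0.41 ± 0.34, 0.15 ± 0.34 and 0.28 ± 0.33 (SE), and were higher in 3, 3 and 2 of 4 colonies. Those between genotypes were 0.13 ± 0.34 for 161 against 075, -0.13 ± 0.33 for 161 against 068 and -0.27 ± 0.34 for 075 against 068. The intervals against control reached from -0.31 to 1.14 for 068, -0.58 to 0.88 for 075 and -0.44 to 0.999 for 161. The interval for 068 includes a level 2-fold higher than in controls.

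In each of the 6 comparisons of genotypes with control or with each other, 0% of genes passed, as in the test over any difference among the 4 exposures. By edgeR the genes with an unadjusted p under 0.05 ranged from 77 for 075 against 068 to 312 for 161 against 075, and the test over all exposures had 139. DESeq2 called 5 genes for 075 against control and 0 in the other comparisons of exposures, and limma called 0 in all of them. The comparisons with control share the same 4 control libraries. The test over all exposures gave an edgeR adjusted p of 0.99934 for both receptors.

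Within colonies, the receptors stood on different sides of the control. XM_003396806.1 was above the control of its colony in 3 of 3 exposed libraries of K, 1 of 3 in L, 2 of 3 in S and 0 of 3 in T. The exposed mean was 1.62 times the control in K, 1.01 in L, 1.03 in S and 0.636 in T. XM_003395847.1 was above its control in 3 of 3 exposed libraries of K, 3 of 3 in L, 0 of 3 in S and 2 of 3 in T. Its exposed mean was 1.82 times the control in K, 1.35 in L, 0.704 in S and 1.498 in T. In RPKM the counts became 3 of 3 in S for XM_003396806.1, and 1 of 3 in S and 3 of 3 in T for XM_003395847.1.

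The difference between colonies in the response was tested as the interaction of colony with exposed state. XM_003396806.1 had an edgeR p of 0.0382 and an adjusted p of 0.411, and XM_003395847.1 had 0.231 and 0.765, so neither passed. Without L 161 the adjusted p of XM_003396806.1 was 0.0974, the lowest of its alternatives. Over all genes, 142 of 8406 passed, which is 1.69%, with 320 by DESeq2 and 116 by limma. Each colony's response rests on 1 control library, and the K control lay at one end of the first principal component.

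**Figure D4:**
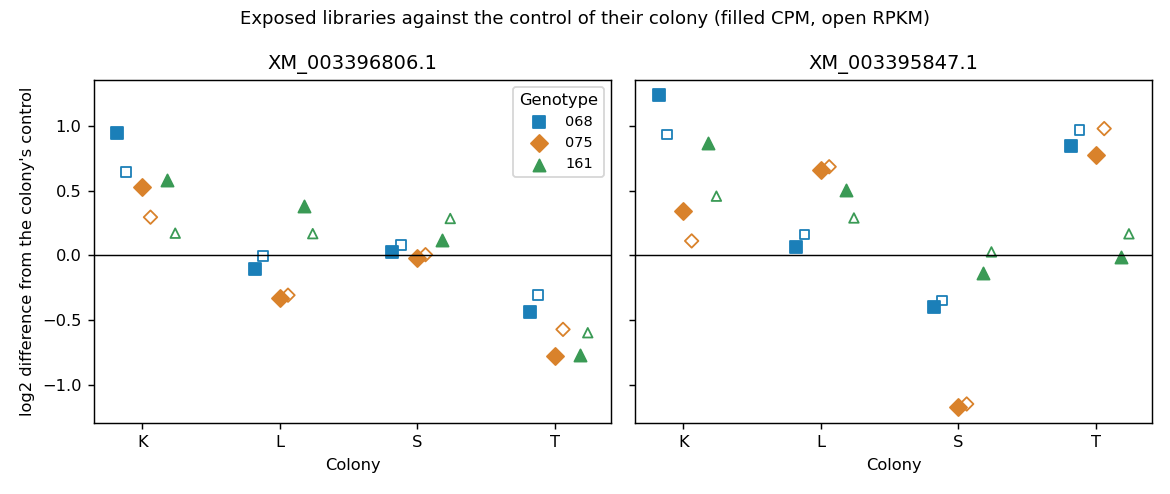
Log2 difference of each exposed library from the control of its colony, by colony and parasite genotype, for the 2 receptors in CPM (filled) and RPKM (open). For XM_003396806.1 the 3 filled points of K lie above 0 and the 3 of T below, and for XM_003395847.1 the points of K and L lie above 0.

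The ratio of the receptors did not differ beyond the spread between exposed and control guts. It was 9.56 ± 6.52 in controls and 7.14 ± 4.11 in exposed libraries (SD, n = 4 and n = 12), higher after exposure in 1 of 4 colonies. The mean log2 difference was -0.285 (two-sided exact permutation test of the control label within colonies, p = 0.320).

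Records named for the Toll pathway were read from a list of product descriptions ordered by role. It held 12 receptor records, 8 adaptors and kinases, 4 NF-kB regulators and 1 effector, of which 21 were tested. No description matched the ligand Spaetzle, its proteases or the recognition proteins. Nor did any match dorsal, Dif, relish, cactus or cactin, names searched for NF-kB factors and inhibitors. The antimicrobial peptides defensin, abaecin, hymenoptaecin and apidaecin were also unmatched, so this output of the pathway was not measured. Between exposed and control guts, 13 of the 21 were higher and 8 lower, with a median log2 difference of 0.05 against -0.02 over all genes tested, of which 44.1% were higher. None of the 21 passed (edgeR), and 0 had an unadjusted p under 0.05.

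Of the 8 receptors tested 5 were higher after exposure, with a median log2 difference of 0.16. The most abundant, XM_003396298.1, stood at 8.43 CPM in L 161 and at 64.1 CPM or more in every other library. It averaged 103 ± 23.4 CPM without exposure and 91.1 ± 30.9 CPM with it, with a log2 difference of -0.20 ± 0.40 (SE). For XM_003394949.1 these means were 65.4 ± 9.18 and 61.6 ± 10.5 CPM, and the log2 difference -0.09 ± 0.14. For XM_003395506.1 they were 27.2 ± 45.4 and 62.7 ± 66.4 CPM. Its log2 difference was 0.53 ± 1.249, and it ranged from 3.09 to 167 CPM over the libraries.

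Among adaptors and kinases 7 of 8 records were higher, with a median of 0.07. XM_003394142.1 and XM_003394143.1 share a locus, TNF receptor-associated factor 4 (LOC100650432), and had -0.07 ± 0.18 and 0.25 ± 0.93. The latter averaged only 0.564 CPM, with 0 to 22 counts per library. Toll-interacting protein (LOC100652100, XM_003402981.1), which dampens Toll-like receptor signalling in mammals, averaged 78.0 ± 9.19 CPM without exposure and 79.4 ± 9.98 CPM with it. Its log2 difference was 0.02 ± 0.10. Pellino (XM_003398728.1), a ubiquitin ligase that binds the Pelle kinase in *Drosophila*, had a log2 difference of 0.10 ± 0.12. TNF receptor-associated factor 6 (LOC100647374, XM_003394833.1), a ubiquitin ligase downstream of Toll-like receptors in mammals, had 0.09 ± 0.26. MyD88 (LOC100631094, XM_003394153.1), the adaptor that binds the receptor itself, had 0.05 ± 0.22 at a mean of 9.70 CPM.

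Of the 4 records placed by product name as NF-kB regulators, 1 was higher, with a median of -0.15. Whether each of the 4 acts on NF-kB was not checked. Subunit gamma of the NF-kB inhibitor kinase (LOC100648721, XM_003400091.1) had a log2 difference of 0.05 ± 0.08 and subunit beta (XM_003393682.1) -0.20 ± 0.29. Subunit beta stood at 5.67 CPM in L 161 and at 21.4 CPM or more in every other library. In *Drosophila* these kinase subunits act in the Imd pathway and not in the Toll pathway. NF-kB inhibitor zeta (XM_003393417.1) had -0.11 ± 0.14. Its hit score of 75.9 is weak, and that of subunit gamma, 99.4, is also under 100. The single effector, lysozyme (XM_003400040.1), which cleaves bacterial walls, was the most abundant of the list at 1387 CPM on average and had -0.08 ± 0.18.

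**Figure D5:**
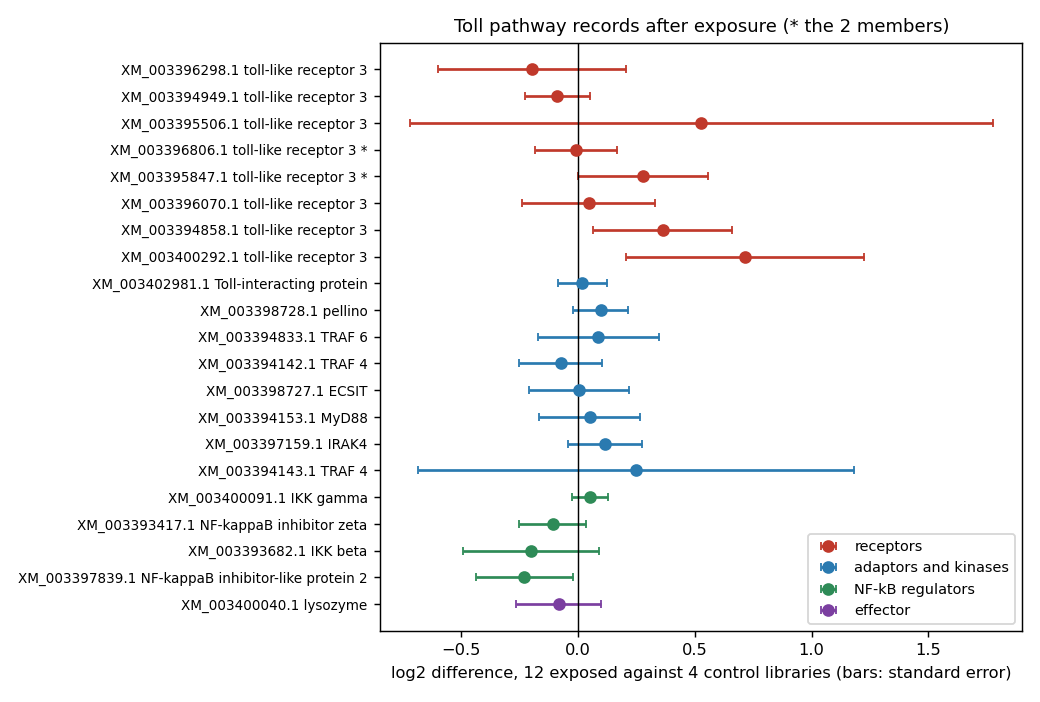
Log2 difference between 12 exposed and 4 control libraries, with standard errors as bars, for the 21 Toll pathway records tested, grouped by role and ordered by mean CPM within a role. Asterisks mark the 2 receptors, at -0.0065 and 0.28, and 13 of the 21 points lie above 0.

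The 2 receptors varied largely apart from each other. Over the 16 libraries their log2 CPM had a Pearson r of 0.297 and a Spearman rho of 0.332, and r was 0.211 once colony and exposure means were removed. The libraries share colonies, so these are descriptions. Genes with a similar pattern were sought among 5458 described genes by Pearson r of log2 CPM over the same 16 libraries.

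XM_003396806.1 was most like a proton-coupled amino acid transporter of family 36 (XM_003396353.1), with r of 0.894. Next came transmembrane serine protease 9 (LOC100644177, XM_003397564.1) at 0.889 and glucose-6-phosphate dehydrogenase (XM_003394043.1), which makes NADPH, at 0.858. Actin beta/gamma 1 (LOC100646910, XM_003396941.1) had 0.844 and the RNA helicase UAP56 (XM_003400297.1), which acts in mRNA export, 0.841. The most opposite were F-box protein 41 (LOC100652175, XM_003401424.1) at -0.875, integrin beta 1 (LOC100647633, XM_003398970.1), an adhesion receptor, at -0.823, and deoxyribose-phosphate aldolase (LOC100642731, XM_003398447.1) at -0.821. With colony and exposure means removed, r of these 8 genes kept its sign, from 0.455 to 0.866 for the 5 alike and -0.867 to -0.696 for the 3 opposite. The genes were chosen for extreme r in these same libraries, so the kept sign is no separate support.

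XM_003395847.1 was most like Xaa-Pro aminopeptidase (LOC100652139, XM_003401097.1), with r of 0.812. Cullin 3 (XM_003398993.1), a ubiquitin ligase scaffold, had 0.798, KTI12 (LOC100642346, XM_003400698.1) 0.775 and THO complex subunit 6 (LOC100642481, XM_003394161.1), of an mRNA export complex, 0.764. A subunit of mitochondrial complex I (LOC100644236, XM_003392827.1) had 0.763. The most opposite were alpha-actinin (LOC100652204, XM_003399325.1), an actin cross-linker, at -0.859, a stearoyl-CoA desaturase (XM_003395097.1) at -0.819 and dihydroorotate dehydrogenase (LOC100646127, XM_003401128.1) at -0.785. With the means removed, r kept its sign, from 0.607 to 0.793 for the 5 alike and -0.807 to -0.419 for the 3 opposite. These genes too were chosen on the same values. When genes were ranked anew on values with colony and exposure means removed, 0 of the 5 most alike were shared for either receptor.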

How the data were processed

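Per the labels' protocols, poly(A) RNA was fragmented, primed with random hexamers and sequenced on an Illumina HiSeq instrument. TopHat 1.9 is named, per the submitters' processing notes; the counting program, genome build and any filter are not given in the sources used here. The deposited table holds, per the file headers, a read count, the percent of the record covered and an RPKM for each record and library. The deposited count columns sum to the totals in their headers in 16 of 16 libraries, and 151539 of 151539 nonzero RPKM cells equal the usual formula (relative tolerance 1e-06). The deposited database hit score comes from a KEGG search. Of nonzero counts below 10, 69.1% were even, against 50.3% of counts with 3 digits, so low counts may hold both mates of a pair, which was not tested.

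The main test was the quasi-likelihood F-test of edgeR 4.0.16 (R 4.3.3) on counts after TMM scaling and filterByExpr, which left 8406 records. Its model held an additive term for colony and one for exposure, leaving 9 residual degrees of freedom. The interaction of colony with exposed state left 8. Adjusted p is Benjamini-Hochberg over all 8406, with a threshold of 0.05. DESeq2 1.42.0, limma 3.58.1, other scalings and filters, fits without colony, and fits without each library or colony were alternatives. Log2 CPM used a prior count of 2. The colony labels pair the libraries, since 4 libraries share each colony. With 1 library per colony and exposure, p-values measure the spread between pools together with any difference between colonies in their response to a genotype. In the interaction fit the 3 exposed libraries of a colony served as its replicates, so differences between genotypes enter its error. The full interaction of colony with genotype could not be tested. The spread between single workers does not enter. Locus symbols were matched by accession to a RefSeq gene table of assembly iyBomTerr1.2 (5155 records matched). Described genes had a hit score of at least 100 for the search of similar patterns. Both receptors were named whatever their values. The list gave up to 3 records per role by mean CPM. MyD88 and the records of TNF receptor-associated factor 4 were added after their values were seen. Similar patterns were the 5 highest and 3 lowest correlations. Tolloid was removed from the list as a match by spelling only. The members and lists were chosen with earlier results of these data known. The scripts were checked on simulated data.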

Additional observations from a re-analysis of the deposited data

Results flagged for a closer look

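Among 12 genes, 96 groups of 4 libraries were examined for 1 library far from the others, and 11 were marked. About 1 in 20 would be marked among independent groups, each drawn from 1 normal population. The groups share libraries, and those by exposure mix colonies, so the 11 cannot be set against that rate. For a receptor described above, the L control stood at 42.9 CPM of XM_003396806.1, against 17.1 to 20.4 CPM in the other 3 controls. It lay within the 34.1 to 56.0 CPM of its colony, which was high in all its libraries. The other marks concern the pathway. In L 161, XM_003396298.1 stood at 8.43 CPM, far below both the other 161 libraries and the other libraries of colony L, where the nearest values were 115 and 98.1 CPM. The same library was lowest for TNF receptor-associated factor 6 (XM_003394833.1), at 5.39 CPM, among the 161 libraries and in colony L, where the nearest values were 24.2 and 21.6 CPM. It was also lowest among the 161 libraries for lysozyme (XM_003400040.1), at 633 CPM against 1468 CPM or more. XM_003395506.1 stood at 95.2 CPM in the K control, against 7.13 CPM or less in the other controls, and at 119 CPM in S 161, against 7.46 CPM or less in the other 161 libraries. Smaller gaps were those of kinase subunit gamma (XM_003400091.1) at 63.2 CPM in T 075, NF-kB inhibitor zeta (XM_003393417.1) at 40.0 CPM in K 075 and XM_003394949.1 at 50.1 CPM in L 075.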

How the results depend on the processing

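Of 818 values recomputed under alternatives, 753 kept their direction and side of the threshold or moved little, 48 changed sign and 17 moved more; no tested value of a receptor lost or gained a call. Over 514 alternatives of the receptors' own exposure comparisons, the smallest adjusted p was 0.0974, for the interaction of XM_003396806.1 without L 161, and 0 were under 0.05; that result ranged up to 0.626. The log2 difference of XM_003396806.1 between exposed and control guts turned to 0.013 with limma, 0.0049 with upper-quartile scaling and 0.055 with no colony block, and for 161 against 068 to 0.00070 with a CPM filter and 0.085 with no block; XM_003395847.1 for 075 against control turned to -0.031 with no block. The block on colony changed no other sign. Without the K control, S 075 and L 161, an alternative chosen after seeing the data, XM_003396806.1 moved to -0.312 for exposed (adjusted p = 0.505) and -0.46 for 075 (adjusted p = 0.378) and turned to -0.146 for 068 and -0.33 for 161 against control, and XM_003395847.1 to -0.218 for 161 against 075 and 0.00046 for 075 against 068. The difference of colony S for XM_003396806.1 became -0.316 there and -0.13 with library totals. Genes called for 075 against control numbered 5 with DESeq2 and 10 without the 3 libraries, and those called for the interaction 320 with DESeq2 and 269 with library totals. The cause of these was not tested.

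Leaving out 1 library or colony at a time, XM_003396806.1 ranged from -0.209 to 0.23 for exposed against control, -0.186 to 0.325 for 068, -0.392 to 0.051 for 075 and -0.105 to 0.351 for 161 against control, -0.212 to 0.163 for 161 against 068, 0.0703 to 0.404 for 161 against 075, -0.356 to -0.102 for 075 against 068, and -0.324 to -0.181 for colony S. XM_003395847.1 ranged from 0.0923 to 0.635 for exposed, 0.105 to 0.765 for 068, -0.0685 to 0.613 for 075 and 0.104 to 0.671 for 161 against control, -0.555 to -0.0183 for 075 against 068, -0.114 to 0.408 for 161 against 075 and -0.298 to 0.112 for 161 against 068. The log2 ratio of the receptors ranged from -0.584 to 0.0186. The K control, T control, L 161 and S 075 were among the libraries whose loss changed a sign. The interaction was not run without a control library, since that colony then has no control. Of the 5 genes most alike, 3 were shared under Spearman ranks for each receptor, 3 in log2(RPKM + 1) for XM_003395847.1 and 2 without the 3 libraries for each. XM_003395847.1 had 24 to 131 reads per library and XM_003396806.1 104 to 405.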

Other observations

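XM_003395506.1, another record described as toll-like receptor 3, fell into separate low and high libraries. It stood at no more than 7.46 CPM in 8 libraries and at 19.0 to 167 CPM in the other 8. The high libraries were K control, K 068, K 075, S 068, S 075, S 161, T 068 and T 075, and all 4 libraries of colony L were low. The high group itself held a step from 40.4 CPM in K 075 to 95.2 CPM in the K control. On the first principal component all 8 low libraries lay on the positive side. The high ones lay on the negative side, except K 068 at 24.2. A link with that component was not tested. XM_003395506.1 was singled out, and the limit of 10 CPM between the groups set, after its values were seen.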
